A study of Rattus norvegicus with 19 samples.

Results

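The interaction of paternal stress and paternal diet asks whether the difference that goes with a father's high-fat diet is the same in daughters of fathers with and without early life stress. It was computed as (ELS-HFD minus ELS) minus (HFD minus control), where HFD is the high-fat diet and ELS is early life stress, and it used all 19 of the 19 libraries of the series. Each library came from the brain of a female Wistar rat, described as whole tissue lysate, while the amygdala is the region named for the series. The 4 groups were 5 daughters of control fathers, 4 daughters of fathers on the high-fat diet (HFD), 5 daughters of fathers exposed to early life stress (ELS), which the series text gives as maternal separation, and 5 daughters of fathers with both exposures (ELS-HFD). All daughters were on chow and were tested on an elevated plus maze around postnatal day 57, so both exposures are the father's. The labels say female throughout, whereas the series text speaks of males, and the labels were followed. They name no father, litter or library batch, so a p-value here reflects variation among the sampled daughters, and daughters of the same father would be less independent than counted.

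An interaction is a difference of differences. It is 0 for a gene whose diet difference is equal in both settings, positive where the diet difference is more upward after paternal stress, and negative where it is more downward. Paternal exposures are studied as influences on offspring that could travel with sperm, for example through DNA methylation, which the series title names. The amygdala takes part in threat processing and anxiety-like behaviour. Transthyretin, which carries thyroxine and, with retinol-binding protein, vitamin A, is made in the brain mainly by the choroid plexus, the epithelium that lines parts of the ventricles.

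Counts were deposited per Ensembl gene ID, and neither the deposited table nor the reference used here pairs an ID with a symbol. Only the row ENSRNOG00000016275 carries a name, transthyretin, because the definition of this comparison gives it. Other genes are therefore described as IDs and by their values, and the markers of amygdala or of other cell types could not be checked. Library totals ran from 7034837 to 20266594 counts. HFD replicate 1 stood apart from the rest, with 25.83% of its counts in its 10 most abundant IDs, against 9% to 16.74% in the other libraries. The definition of this comparison asks for results with and without this library. Levels below are in CPM, each ID's count relative to its library's total, scaled for library composition.

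Transthyretin itself had higher group means in control and ELS-HFD than in HFD and ELS. In the control libraries it was at 4632, 2351, 1125, 877 and 321 CPM. In the HFD libraries it was at 2.30, 2.59, 1.55 and 0.684 CPM, from 7 to 37 counts per library. All 4 HFD libraries thus lay below all 5 controls. In the ELS libraries it was at 6.83, 1.72, 0.906 and 1.10 CPM in replicates 1 to 4 and at 4377 CPM in replicate 5. In the ELS-HFD libraries it was at 0.766, 842, 833, 5.10 and 10590 CPM. Both stressed groups held libraries at the level of HFD and libraries at the level of control, so ELS and ELS-HFD overlapped widely. In bulk tissue, fewer cells of a type and less RNA per cell cannot be told apart.

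**Figure D1:**
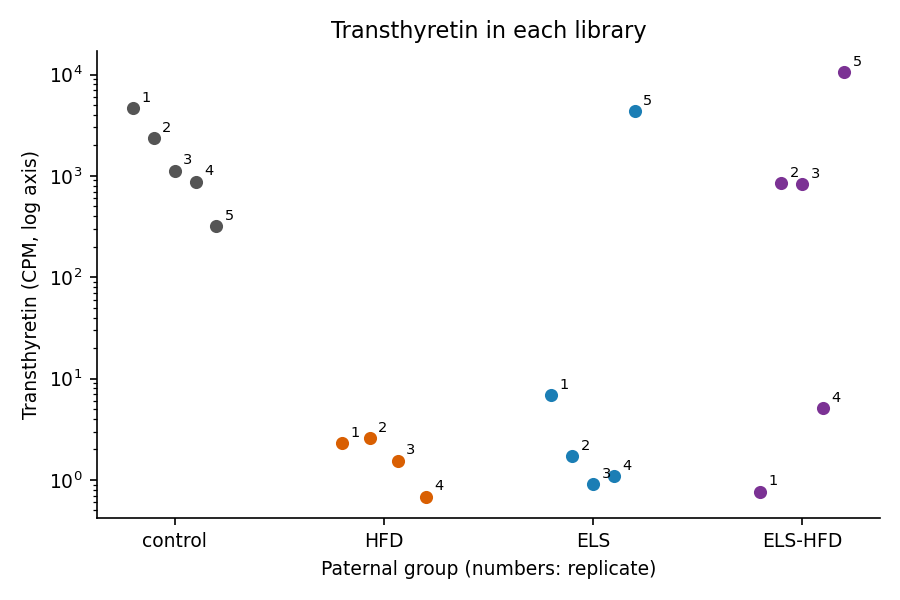
Transthyretin in CPM (log axis) in each of the 19 libraries, by paternal group, with replicate numbers beside the points. The 5 control libraries lie at 321 CPM or higher and the 4 HFD libraries at 2.59 CPM or lower, while ELS replicate 5 and ELS-HFD replicates 2, 3 and 5 lie at 833 CPM or higher.

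The fitted diet difference of transthyretin was -10.00 ± 3.09 (log2, SE) without paternal stress and 1.48 ± 1.85 (log2, SE) with it. With paternal stress the means were 2454 CPM in ELS-HFD and 877 CPM in ELS, each set mainly by replicate 5 of its group. The medians of these groups were 833 and 1.72 CPM. The difference between the 2 fitted diet differences, the interaction, was 11.48 ± 3.51 (log2, SE). Its adjusted p was 0.969 by edgeR's quasi-likelihood test over 15372 IDs. Without HFD replicate 1 it was 11.60 ± 3.99 (log2, SE), with an adjusted p of 0.166. The call depended on a single ELS library and on the tool. Without ELS replicate 5, the only ELS library with a high level, the interaction was 19.82 ± 2.98 (log2, SE) and passed at an adjusted p of 0.0428 by edgeR, and with DESeq2 on all libraries it was 11.51 ± 2.53 (log2, SE) with an adjusted p of 0.0214. Without HFD replicate 1 and ELS replicate 5 together, the edgeR adjusted p was 0.0771.

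Across all IDs, edgeR called 0 of 15372 (0%) for the interaction at a Benjamini-Hochberg adjusted p under 0.05, and the smallest adjusted p was 0.969. At an unadjusted p under 0.05 there were 788 IDs (5.13%), 436 positive (2.84%) and 352 negative (2.29%). This share is about what the threshold itself gives when no ID has an interaction. With sample quality weights, limma-voom called 0 (0%), reached an unadjusted p under 0.05 in 3032 (19.7%), and gave HFD replicate 1 the lowest weight of the 19 libraries, 0.1. DESeq2 called 5 (0.0325%), all positive, of which 1 was transthyretin and 2 others followed it within groups in the sense described below. Sizes were bounded for many IDs despite the absence of calls. The 95% interval of the edgeR interaction lay within a 2-fold difference in either direction for 9513 of 15372 IDs (61.9%), with a median half-width of 0.60 on the log2 scale.

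On the 18 libraries that remain without HFD replicate 1, edgeR called 0 of 15547 IDs (0%), but 3135 (20.2%) reached an unadjusted p under 0.05, 1618 positive (10.4%) and 1517 negative (9.76%). The smallest adjusted p fell to 0.164, and the median SE fell from 0.29 to 0.24 on the log2 scale. Of the 788 IDs from all libraries, 611 (77.5%) were among the 3135, all with the same sign, and they made up 19.5% of the latter. DESeq2 called 194 (1.25%) on these 18 libraries, 81 positive and 113 negative. It gave no adjusted p for 3618 of the 15547 IDs, so its adjustment covered fewer IDs than that of edgeR. Leaving out any other single library gave edgeR numbers from 550, when control replicate 1 was dropped, to 1222, when ELS-HFD replicate 4 was. Dropping ELS-HFD replicate 4 together with HFD replicate 1, a choice made after seeing the data, let edgeR call 1479 IDs (9.52%), 571 positive and 908 negative. Whether any ID passes therefore depended on these libraries. Without ELS replicate 5 edgeR called 12 IDs (0.0784%), all positive. These were transthyretin and 11 IDs that followed it within groups.

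**Figure D2:**
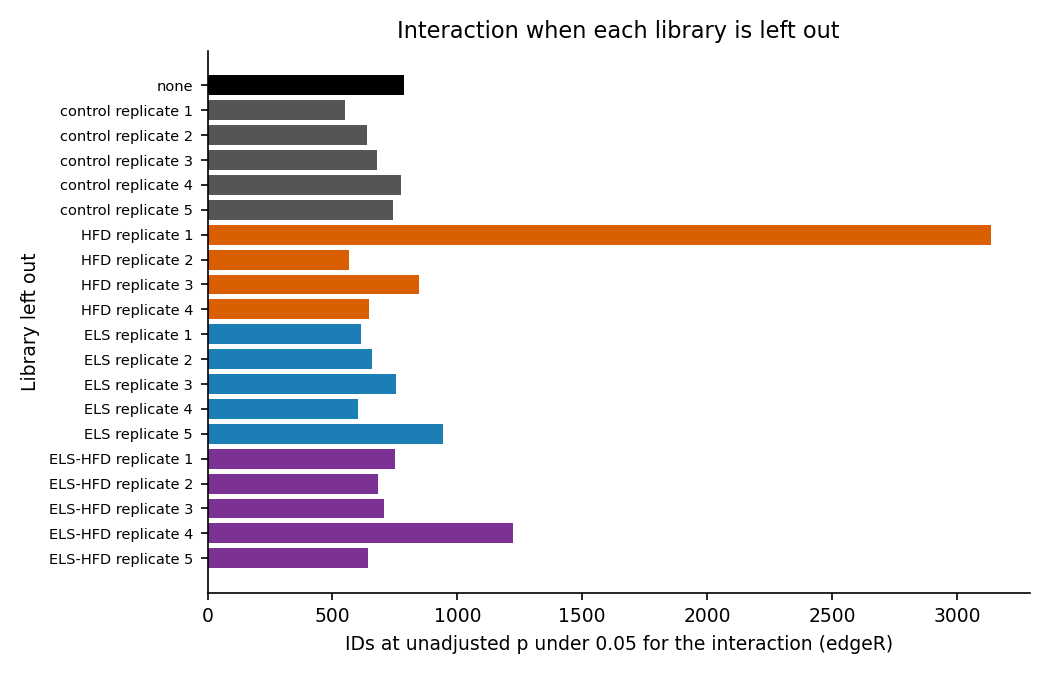
Number of IDs at an unadjusted p under 0.05 for the interaction (edgeR, horizontal axis) with no library left out (black bar, 788) and with each library left out in turn, coloured by paternal group. The bar for HFD replicate 1 reaches 3135, that for ELS-HFD replicate 4 reaches 1222, and the other bars lie between 550 and 942.

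The order of the plain group means was crossed for most IDs at an unadjusted p under 0.05 for the interaction. It was less often so for the IDs from the fit with transthyretin as covariate, described below. Among the 788, the control and ELS-HFD means both lay on the same side of the HFD and ELS means in 658 (83.5%), an order found in 21.6% of all IDs tested. A large interaction favours this order, so the share describes the 788 and tests nothing. When HFD replicate 1 was dropped the order held in 2632 of the 3135 (84.0%), and over all IDs it then held in 44.2%. Of the 424 IDs at an unadjusted p under 0.05 with the covariate (edgeR), 247 (58.3%) had this order. In 68.4% of the 424 the diet difference had opposite signs. Both shares use group means that were not adjusted for transthyretin, so they do not describe the diet differences of that fit. The share of all IDs whose diet difference had opposite signs in the 2 settings was 29.6% with HFD replicate 1 and 54.5% without it. A single library thus moved the direction of the diet difference for a large share of IDs. With all 19 libraries the separation was complete for no ID: in 0 of 15372 IDs (0%) did all 10 control and ELS-HFD libraries lie above, or all below, all 9 HFD and ELS libraries, and in 4 (0.026%) when HFD replicate 1 was dropped. Of the 3326 IDs with a crossed order of means, 1845 (12% of all IDs) had control and ELS-HFD above and 1481 (9.63%) had them below. Only 7 IDs (0.0455%) had no overlap in either pair, HFD against control and ELS-HFD against ELS. Either direction counted in each pair, so these 7 need not have a crossed order.

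Calls within 1 setting do not show an interaction. With all libraries, both settings had 0 calls by edgeR (0%). An unadjusted p under 0.05 was reached by 1198 IDs (7.79%) for HFD minus control, 734 higher (4.77%) and 464 lower (3.02%), and by 3039 (19.8%) for ELS-HFD minus ELS, 1342 higher (8.73%) and 1697 lower (11%). Dropping HFD replicate 1 turned the balance of the first: 587 IDs (3.78%) reached it, 206 higher (1.33%) and 381 lower (2.45%), with 0 called. For ELS-HFD minus ELS, 2405 of 15547 IDs (15.5%) were then called, and 5137 (33%) reached an unadjusted p under 0.05, 2564 higher (16.5%) and 2573 lower (16.5%). The test of the difference between these differences nevertheless called 0, so the diet difference was not shown to depend on paternal stress for any single ID in that fit.

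Transthyretin was next added to the fit as a covariate, as its log2 CPM in each library. Of the variance of that measure, 50.1% lay between the 4 groups, so the covariate and the groups overlap. Its SD was 1.46 in control and 0.78 in HFD, against 5.07 in ELS and 5.64 in ELS-HFD. The fitted slope thus rested mostly on the 2 stressed groups. Control and HFD did not overlap in transthyretin, so their adjusted difference extends that slope across the gap. The adjustment can therefore remove or create an interaction. The SE of the interaction was larger by a median factor of 1.37. In this fit edgeR called 0 of 15372 IDs (0%), and 424 (2.76%) reached an unadjusted p under 0.05, 153 positive (0.995%) and 271 negative (1.76%). DESeq2 called 1 (0.00651%). The positive share at an unadjusted p under 0.05 was 55.3% without the covariate and 36.1% with it. Without the covariate it was also below that of all libraries under other changes, at 39.7% when ELS-HFD replicate 5 was dropped, 43% with limma-voom and quality weights, and 45.9% when ELS-HFD replicate 4 was dropped. Of the 788 IDs from the fit without the covariate, 128 (16.2%) were among the 424, where they made up 30.2%, and 116 of the 128 kept their sign. The interaction was within 2-fold by its 95% interval for 7219 IDs (47%). Within the settings, 885 IDs (5.76%) reached an unadjusted p under 0.05 for HFD minus control, 616 higher (4.01%) and 269 lower (1.75%), and 2039 (13.3%) for ELS-HFD minus ELS, 888 higher (5.78%) and 1151 lower (7.49%), with 0 called in either. Dropping HFD replicate 1 as well gave 967 IDs for the interaction, again with 0 called.

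Many IDs moved with transthyretin among libraries of the same group. At an adjusted p under 0.05 for the slope, 374 of 15371 other IDs (2.43%) had a positive slope and 3 (0.0195%) a negative slope. In the fit without the covariate, 156 of these 377 IDs (41.4%) were at an unadjusted p under 0.05 for the interaction, against 5.13% of all IDs, and all 156 were positive. Their median interaction was 1.51 on the log2 scale, against -0.03 over all IDs. With the covariate 82 of the 377 were at an unadjusted p under 0.05, of which 1 was positive, and the median was -0.99. These IDs were selected in the fit with the covariate, so the values describe them and are no test. The part of ventricular tissue in the dissected samples was not tested, since no other marker of it could be named.

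To find IDs whose interaction kept its sign with and without HFD replicate 1 and the covariate, those were taken that had the same sign and an unadjusted p under 0.05 in all 3 fits, with at least 1 CPM in a group mean. There were 91 of 15372 (0.592%) before the CPM minimum and 86 (0.559%) after it, 51 positive (0.332%) and 35 negative (0.228%). The largest of the 3 p-values was 0.0495 for the last ID inside this rule and 0.0501 for the first outside. The 51 positive IDs had interactions from 0.28 to 6.48 (log2, median 0.65), with a median diet difference of -0.27 without and 0.44 with paternal stress. The 35 negative IDs had interactions from -2.67 to -0.42 (log2, median -0.79), with median diet differences of 0.22 and -0.62. In 74 of the 86 the control and ELS-HFD means lay together on 1 side of the HFD and ELS means, and in 76 the diet difference had opposite signs in the 2 settings. The libraries of HFD and control did not overlap in 3 of the 86, against 2.22% of all IDs, and those of ELS-HFD and ELS did not overlap in 29, against 6.95% of all IDs. No ID of the 86 was among the 377 that followed transthyretin, although the rule, which asks for the interaction after that adjustment, favours this. Since the rule used the interaction, all these values are a description.

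Averaged over the 51 positive IDs, each scaled to its own mean and SD over libraries, the 5 ELS libraries were between -1.01 and -0.29 SDs and the 5 ELS-HFD libraries between 0.25 and 1.14. The 5 controls were between 0.10 and 0.81, and the 4 HFD libraries between -0.70 and 0.18. HFD replicate 3 was the HFD library above 0. Over the 35 negative IDs the ELS libraries were between 0.53 and 1.17, ELS-HFD between -1.09 and -0.15, control between -0.53 and -0.24 and HFD between -0.03 and 0.78. In both directions ELS and ELS-HFD did not overlap, whereas HFD and control overlapped in the positive IDs, through HFD replicate 3, and not in the negative ones. The rule that selected these IDs favours such separation, so it is a description and no test. The count of 86 itself was 32 without ELS-HFD replicate 1, 145 without HFD replicate 3 and 153 without ELS-HFD replicate 4.

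**Figure D3:**
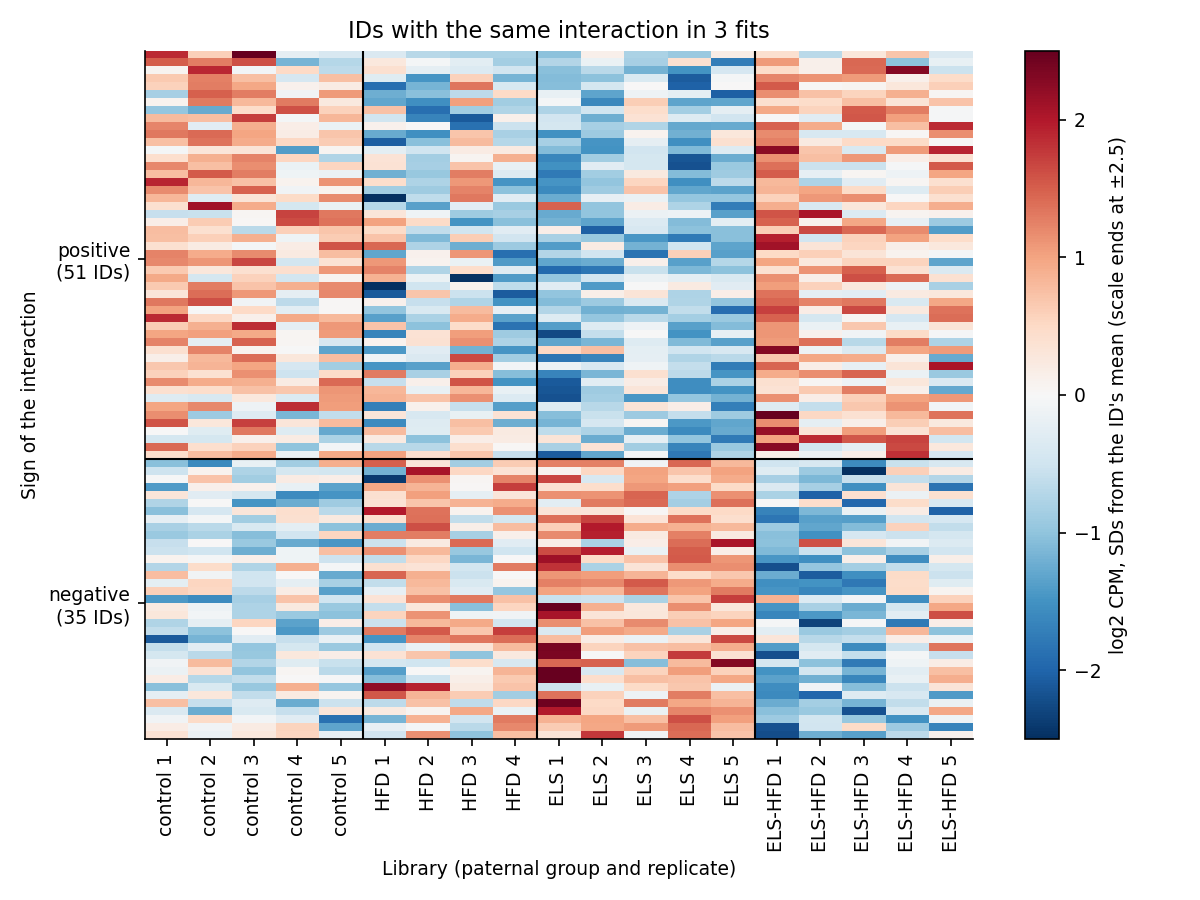
Heat map of the 86 IDs whose interaction had the same sign and an unadjusted p under 0.05 (edgeR) in all 3 fits. Rows are IDs, 51 positive above and 35 negative below the line. Columns are the 19 libraries by paternal group, and the colour is log2 CPM in SDs from each ID's mean. In the positive block the ELS columns are mostly blue (low) and the ELS-HFD and control columns mostly red (high), with the HFD columns mixed, and the negative block is the reverse.

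Of these 86, the 2 positive and 2 negative IDs with the smallest largest p are shown. ENSRNOG00000050407 was at 9.26, 23.4, 21.4, 12.4 and 19.6 CPM in control and at 7.90, 8.47, 9.87 and 15.7 CPM in HFD libraries. It was at 11.99, 7.59, 12.2, 11.7 and 5.64 CPM in ELS and at 20.5, 17.2, 16.1, 18.4 and 13.2 CPM in ELS-HFD libraries. All 5 ELS-HFD libraries were above all 5 ELS libraries, while HFD and control overlapped through control replicates 1 and 4 and HFD replicates 3 and 4. Its diet difference was -0.72 ± 0.28 (log2, SE) without and 0.80 ± 0.27 (log2, SE) with paternal stress, and its interaction was 1.52 ± 0.39 (log2, SE), with an edgeR adjusted p of 0.969. The interaction was 1.42 ± 0.40 (log2, SE) without HFD replicate 1 (adjusted p = 0.164, edgeR) and 2.39 ± 0.48 (log2, SE) with the covariate (adjusted p = 0.723, edgeR). Its fitted slope on transthyretin within groups was -0.06 (log2 per log2, unadjusted p = 0.0189, edgeR), the steepest of the 4 printed IDs. It was the only ID that DESeq2 called with the covariate, at an adjusted p of 0.01, and DESeq2 also called it without HFD replicate 1 (adjusted p = 0.0393) but not on all 19 libraries without the covariate (adjusted p = 0.15).

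ENSRNOG00000002916, the other positive ID, was at 15.1, 14.7, 15.5, 12.9 and 14.8 CPM in control and at 15.0, 10.7, 14.7 and 12.02 CPM in HFD libraries. It was at 11.3, 11.04, 10.04, 9.47 and 10.8 CPM in ELS and at 18.9, 12.04, 14.6, 15.8 and 14.3 CPM in ELS-HFD libraries. The ELS libraries lay below every control and every ELS-HFD library, and the HFD libraries reached into the ranges of all 3 other groups. The diet difference was -0.16 ± 0.14 (log2, SE) without and 0.52 ± 0.13 (log2, SE) with paternal stress. The interaction of 0.68 ± 0.19 (log2, SE) had an edgeR adjusted p of 0.969, and it was 0.77 ± 0.18 (log2, SE) without HFD replicate 1 and 0.84 ± 0.25 (log2, SE) with the covariate. DESeq2 called it without HFD replicate 1 (adjusted p = 0.0273) and not in the other 2 fits, where its adjusted p was 0.211 on all libraries and 0.881 with the covariate.

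**Figure D4:**
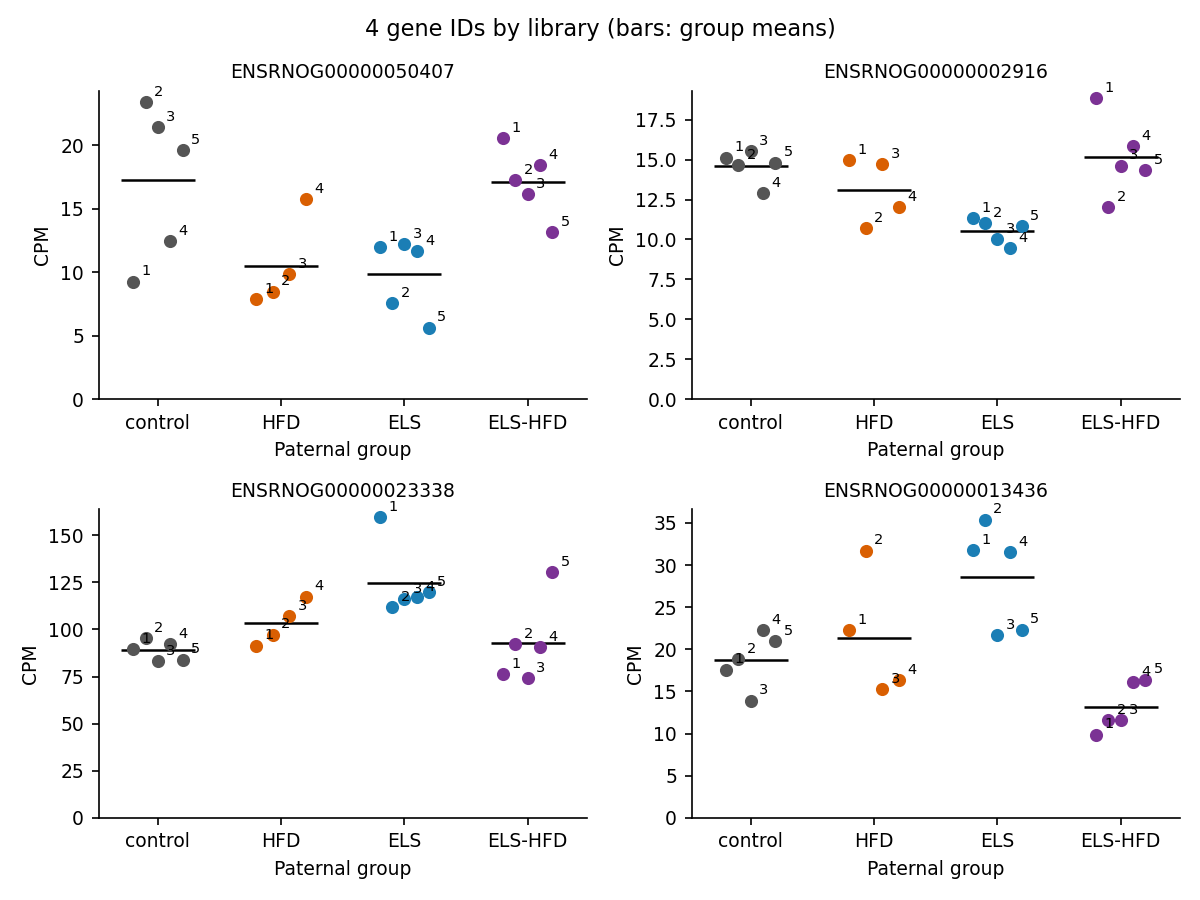
CPM of the 4 printed IDs in each of the 19 libraries by paternal group, with replicate numbers beside the points and bars at the group means. ELS and ELS-HFD do not overlap in 3 of the 4, and in ENSRNOG00000023338 they overlap through ELS-HFD replicate 5 at 131 CPM. Over all IDs, ELS and ELS-HFD do not overlap in 1069 of 15372 (6.95%). The 4 IDs were selected for their interaction, which favours such separation, so it is a description and no test.

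ENSRNOG00000023338, with a negative interaction, was at 89.4, 95.6, 83.3, 92.4 and 83.9 CPM in control and at 91.4, 97.3, 107.0 and 117.4 CPM in HFD libraries. It was at 159.6, 111.9, 116.2, 117.0 and 119.8 CPM in ELS and at 76.5, 92.1, 74.0, 90.6 and 130.5 CPM in ELS-HFD libraries. All ELS libraries were above all controls, and ELS-HFD replicate 5 was the only ELS-HFD library at the level of ELS. The interaction was -0.65 ± 0.20 (log2, SE; edgeR adjusted p = 0.969), -0.68 ± 0.20 (log2, SE) without HFD replicate 1 and -0.94 ± 0.27 (log2, SE) with the covariate. The DESeq2 adjusted p was 0.395, 0.0511 and 0.881 in these fits.

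ENSRNOG00000013436, the other negative ID, was at 17.6, 18.8, 13.9, 22.2 and 21.0 CPM in control and at 22.2, 31.7, 15.3 and 16.3 CPM in HFD libraries. It was at 31.8, 35.4, 21.7, 31.5 and 22.3 CPM in ELS and at 9.89, 11.6, 11.6, 16.1 and 16.4 CPM in ELS-HFD libraries. The 2 stressed groups did not overlap, and HFD overlapped control. Its diet difference was 0.20 ± 0.22 (log2, SE) without and -1.12 ± 0.21 (log2, SE) with paternal stress, so nearly all of the interaction of -1.31 ± 0.30 (log2, SE; edgeR adjusted p = 0.969) lay in the stressed setting. The interaction changed little between fits, at -1.28 ± 0.32 (log2, SE) without HFD replicate 1 and -1.28 ± 0.44 (log2, SE) with the covariate, and its fitted slope on transthyretin was 0.00 (unadjusted p = 0.923, edgeR). The slopes of ENSRNOG00000002916 and ENSRNOG00000023338 were -0.01 (unadjusted p = 0.322, edgeR) and 0.02 (unadjusted p = 0.133, edgeR). DESeq2 called it without HFD replicate 1 (adjusted p = 0.0273) and not on all libraries (adjusted p = 0.0688) or with the covariate (adjusted p = 0.999). HFD replicate 1 and ELS-HFD replicate 4 were also dropped together, a choice made after seeing the data. All 4 printed IDs then passed by edgeR, with adjusted p from 0.0214 to 0.0482. In that fit 9.52% of all IDs were called, and transthyretin was not (adjusted p = 0.0575, edgeR). The 4 IDs were selected for this interaction in the same data, so their passing is no test.

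**Figure D5:**
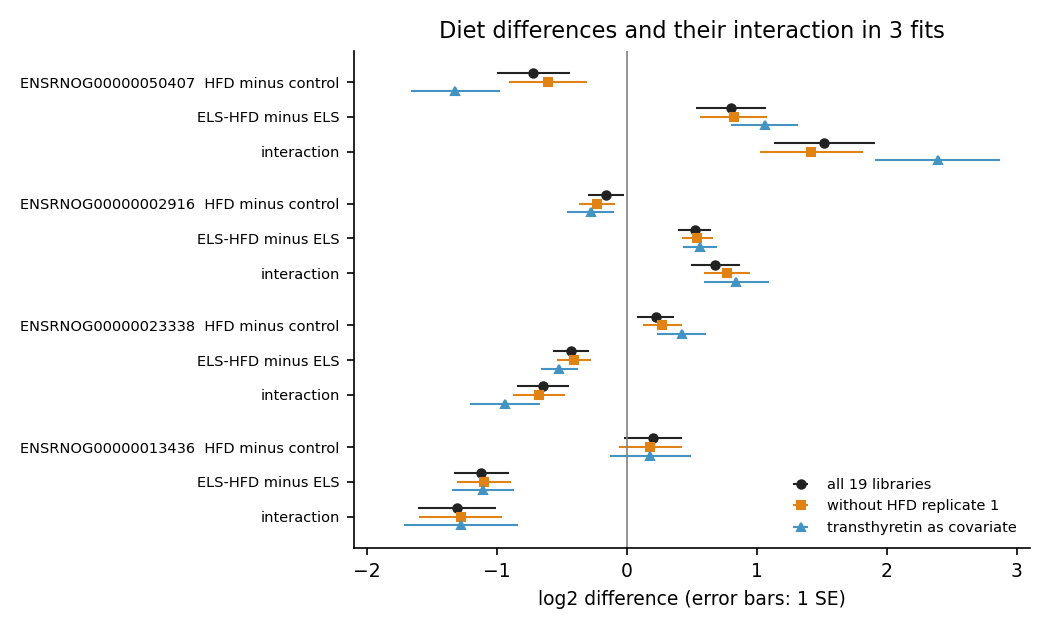
Diet difference without paternal stress (HFD minus control), with it (ELS-HFD minus ELS), and their interaction, on the log2 scale with bars of 1 SE, for the 4 printed IDs in 3 edgeR fits (all 19 libraries, without HFD replicate 1, and with transthyretin as covariate). The rule that picked these IDs required each interaction to keep its sign across fits. The interaction ranges from 1.42 to 2.39 in ENSRNOG00000050407 and from -1.31 to -1.28 in ENSRNOG00000013436.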

How the data were processed

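For each of 19 libraries the authors deposited raw counts, whole numbers assigned to Ensembl gene IDs, per the file headers. Polyadenylated RNA was enriched from about 400 ng and copied with random primers, per the labels' protocols. The submitters' processing notes name Rnor_6.0 and DESeq2. Aligner, annotation release and strand setting were not given in the sources used here, so overlapping or near-identical genes carry an unmeasured uncertainty. Each column was tied to its sample through the animal number that the labels give.

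Of 32883 IDs, 15372 passed edgeR's filterByExpr on the 4 groups and held at least 99.9% of each library's counts. Sizes were scaled by TMM. Testing used the quasi-likelihood F test of edgeR 4.0.16 (R 4.3.3), in 1 fit over all libraries with group means, adjusted by Benjamini-Hochberg over all IDs at 0.05. The SE was obtained from the log2 value and F. The fit was repeated without HFD replicate 1 (filter and scaling recomputed, 15547 IDs) and with transthyretin's log2 CPM (prior count 2) as covariate. Alternatives used DESeq2 1.42.0 and limma 3.58.1. The procedure was tried on simulated data with no outlying library, which does not measure its power in these libraries. Of the IDs in the table, 0 matched a symbol, so the 34 gene lists prepared for this work were not tested. The printed IDs are the first 2 in each direction, ranked by the largest p over the 3 fits. The comparison, lists and rules were chosen with earlier results of these data known. The replicate numbers are not stated to pair animals and were not treated as pairs.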

Additional observations from a re-analysis of the deposited data

Results flagged for a closer look

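In 28 groups of values (the 5 printed IDs, library totals and the percent of counts in the top 10 IDs, for each of the 4 groups), 4 had an extreme library by Dixon's gap test. Chance alone would mark about 1 in 20. ELS replicate 5 stood apart in transthyretin, at 12.10 log2 CPM, and ELS replicate 1 in ENSRNOG00000023338, at 7.32 log2 CPM. HFD replicate 4 had the lowest total of its group, at 10092297 counts, and HFD replicate 1 had 25.83% of its counts in its 10 most abundant IDs.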

How the results depend on the processing

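With 4 or 5 animals a group and 1 library per animal, the spread between daughters limits every call. The 4 printed IDs kept the sign of their interaction under all 28 alternatives, and so did transthyretin wherever it was tested, on the same side of the threshold under 24 and newly past it under 2 (without ELS replicate 5, and DESeq2). The 4 IDs were selected for keeping their sign without HFD replicate 1 and with the covariate, which are among the alternatives. The other alternatives reuse mostly the same libraries, so this agreement is no independent test. With DESeq2, 5 IDs were called for the interaction, 194 without HFD replicate 1 and 1 with the covariate, and 5 for HFD minus control and 151 for ELS-HFD minus ELS. With limma-voom and quality weights, 3032 IDs were at an unadjusted p under 0.05 for the interaction and 1004 with the covariate, 1 was called without HFD replicate 1, 594 met the rule of 3 fits, and 2405 were called for ELS-HFD minus ELS (2033 of them shared with the 2405 called by edgeR without HFD replicate 1). With no filter beyond 1 count, 1206 and, with the covariate, 706 were at an unadjusted p under 0.05. These were 2016 and 1211 on the libraries left after dropping HFD replicate 1 with ELS-HFD replicates 2 and 3. With the covariate alone 424 were, and with the covariate and without HFD replicate 1, 876 were called for ELS-HFD minus ELS. The cause of these shifts was not tested. Leaving out each library gave 0 to 12 calls and 550 to 3135 IDs at an unadjusted p under 0.05 for the interaction. It gave 0 to 1479 calls and 2059 to 4508 such IDs when HFD replicate 1 was also left out, and 0 calls and 292 to 967 such IDs with the covariate. It gave 32 to 153 IDs under the rule of 3 fits, 0 calls for HFD minus control and 0 to 2405 for ELS-HFD minus ELS. With the replicate number as a block, edgeR called 0 IDs and 682 were at an unadjusted p under 0.05. Only 8 of 27 same-numbered pairs correlated above 0.1 in their deviations from group means (range -0.44 to 0.57), and 6 of 19 libraries correlated best with their own number, so the numbers were not taken as pairs. The medians of gene lists were not run, since no ID could be named. The alternatives for the fits without HFD replicate 1 and with the covariate, for the rule of 3 fits, and for HFD minus control and ELS-HFD minus ELS, were chosen after seeing the data.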
